A study of Mus musculus with 6 samples.

Results

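The 8 enzymes described here supply deoxynucleotides, the building blocks of DNA, or remove them: Rrm1, Rrm2, Tyms, Tk1, Dtymk, Dut, Dck and Samhd1. They were chosen by name for this role, but with earlier results of these data known, so the counts below describe them and are no independent test. Each symbol matched a single identifier among the 55335 genes counted in every library. The libraries came from B16 cells, a pigmented mouse melanoma line that the study's methods name as the B16-BL6 subline, grown in culture without added interferon as far as the labels say. Both groups carried a lentiviral CRISPR-Cas9 construct and had been selected with puromycin: 3 scrambled control cultures (genotype WT in the labels, with a guide against GFP) and 3 IFNγR1KO cultures (with a guide against Ifngr1, the gene of the ligand-binding chain of the interferon-γ receptor). By the study's methods, transduced cells were plated to grow out as single clones. The labels do not say whether the IFNγR1KO cultures, replicates 10, 11 and 12, came from the same clone, so a difference between the groups cannot be told apart from a difference between clones. The study's methods describe the cultures as triplicates seeded the night before RNA was extracted. The p-values therefore measure the spread between such cultures, which may be technical.

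Deoxynucleotides are made mainly by ribonucleotide reductase, which reduces ribonucleotides and is built from a large subunit, RRM1, that holds the active site, and a small subunit, RRM2, that carries the radical needed for the reaction. Thymidylate is made from dUMP by thymidylate synthase (TYMS) or salvaged from thymidine by cytosolic thymidine kinase (TK1), and is passed on towards dTTP by thymidylate kinase (DTYMK). DUT breaks down dUTP and so provides dUMP while keeping uracil out of DNA, DCK salvages deoxycytidine and purine deoxynucleosides, and SAMHD1 cleaves dNTPs. The levels of several of these enzymes rise in proliferating cells as DNA replication begins, whereas the alternative small subunit RRM2B and the mitochondrial kinase TK2 serve cells outside S phase and the mitochondria.

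IFNγR1KO libraries held 6698956 to 7409479 counts on genes, fewer than the 9402640 to 10579788 of scrambled control libraries. Ifngr1 was counted in every library, with 16.7, 14.3 and 16.6 CPM in the scrambled controls against 11.4, 11.5 and 11.5 CPM after the knockout (edgeR adjusted p = 0.073), and these counts do not show whether a receptor is made. The study checked receptor expression of its clones by flow cytometry and reported that IFNγR1KO cells did not respond to interferon-γ. CPM is a library's count of a gene scaled to 1000000 counts on the tested genes, with library sizes adjusted by the TMM method. The 7 markers of the melanocyte lineage summed to 31700 to 34700 CPM in scrambled control and 27900 to 32800 CPM in IFNγR1KO libraries, none of them called. Of 11 markers of leukocytes, endothelial, epithelial, mesenchymal and red blood cells, 5 had no count in any library, and the whole list summed to 4.68 to 6.73 CPM and 6.54 to 8.72 CPM in the respective groups, most of it from Pdgfra and from Col1a1, which rose from 1.33 to 5.2 CPM. Scrambled control replicate 3 and IFNγR1KO replicate 12 stood apart from the other libraries of their groups: the chi-square per degree of freedom was 22.7 and 20.4 for pairs with replicate 3 against 9.25 between replicates 1 and 2, and 18.4 and 15 for pairs with replicate 12 against 2.62 between replicates 10 and 11. In both of these libraries Tyms, Tk1, Dtymk and Dut were at the lowest level of their group and Rrm1, Dck and Samhd1 at the highest. The counts below were therefore also made without them.

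In IFNγR1KO cells, 6 of the 8 transcripts fell: Rrm1, Rrm2, Tyms, Tk1, Dut and Dck, to between 0.442 and 0.586 times the level of scrambled control. Dtymk and Samhd1 did not pass the test, at 0.794 and 0.716 times, and none rose. The quasi-likelihood test of edgeR was used, and a gene was called at a Benjamini-Hochberg adjusted p under 0.05 over all 13642 tested genes, of which 15.3% were called, 7.62% as lower and 7.73% as higher. All 8 had a log2 fold change below 0, as had 50.2% of the genes tested. All 8 passed the filter on low counts. With a log2 fold change below -1 as a further criterion, that of a DEG, 2 remained, Rrm2 and Tk1, against 1.96% of all tested genes; over 14 alternative settings the log2 fold change of Rrm2 ran from -1.08 to -1. For 7 of the 8, all but Dtymk, the libraries of IFNγR1KO cells were all below those of scrambled control, against 16.6% of tested genes that were lower with no overlap. The median log2 fold change was -0.86 over the 8 and 0 over all tested genes. The summed level of the 8 was 1880 to 2080 CPM in scrambled control and 993 to 1150 CPM in IFNγR1KO libraries. In bulk RNA a smaller share of cells in S phase and less of these transcripts per cell cannot be told apart.

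**Figure D1:**
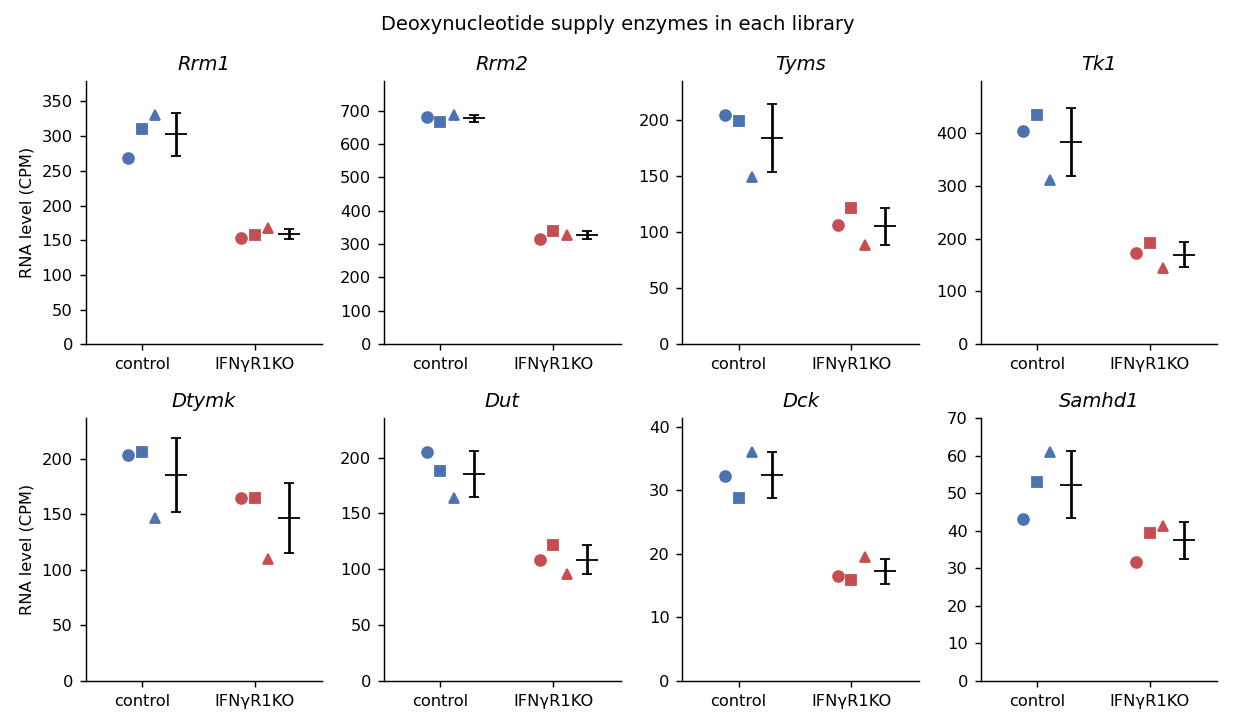
Level of each of the 8 transcripts in CPM (vertical axes, each from 0) in the 3 scrambled control (blue) and 3 IFNγR1KO (red) libraries; circles, squares and triangles are replicates 1, 2 and 3 and replicates 10, 11 and 12, and black bars are the mean and SD of a group. The groups are separate for all but Dtymk, and triangles are the lowest points of Tyms, Tk1, Dtymk and Dut and the highest of Rrm1, Dck and Samhd1 in both groups.

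To give the genomic context of the results, sequences upstream of 4 of the genes are printed, in GRCm38.p6 from RefSeq promoter windows (250 bases before to 50 after an annotated start; all 8 genes matched) and cut at the first base that GENCODE release M21 assigns to the gene. Rrm1 (chr7:102441445-102441694, plus strand) and Rrm2 (chr12:24708004-24708240, plus strand) are shown as the genes of the subunits of a single enzyme, Tk1 (chr11:117826093-117826264, minus strand) for its fold change, the lowest of the 8, and Dtymk (chr1:93801935-93802184, minus strand) for the smallest change. They read 5′ to 3′ along the gene, with capitals marking an E2F-type heptamer on either strand, with the letters TTCCCGC or a variant of these (TTCGCGC as the first variant, TTGCCGC as the second and TTGGCGC as the third), or a CCAAT box (the letters CCAAT on either strand).
Rrm1: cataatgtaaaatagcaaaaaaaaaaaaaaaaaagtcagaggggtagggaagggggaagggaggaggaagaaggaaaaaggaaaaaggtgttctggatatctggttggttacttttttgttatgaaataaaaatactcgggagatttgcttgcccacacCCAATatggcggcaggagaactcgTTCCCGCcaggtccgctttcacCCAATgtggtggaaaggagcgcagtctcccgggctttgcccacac
Rrm2: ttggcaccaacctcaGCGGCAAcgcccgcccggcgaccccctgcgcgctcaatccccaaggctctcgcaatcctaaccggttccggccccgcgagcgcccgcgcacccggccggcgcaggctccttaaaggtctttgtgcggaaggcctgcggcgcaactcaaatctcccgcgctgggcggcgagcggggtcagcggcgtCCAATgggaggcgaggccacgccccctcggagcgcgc
Tk1: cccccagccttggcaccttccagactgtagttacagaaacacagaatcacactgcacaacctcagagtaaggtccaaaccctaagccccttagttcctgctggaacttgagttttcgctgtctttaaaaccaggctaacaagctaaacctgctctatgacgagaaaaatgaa
Dtymk: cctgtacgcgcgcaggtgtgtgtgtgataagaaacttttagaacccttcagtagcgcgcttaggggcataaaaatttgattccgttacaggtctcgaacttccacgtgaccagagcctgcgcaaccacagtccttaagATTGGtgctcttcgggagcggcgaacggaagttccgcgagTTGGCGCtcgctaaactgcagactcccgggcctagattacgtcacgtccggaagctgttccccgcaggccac
E2F factors drive genes at the start of S phase, and the CCAAT box is bound by NF-Y. The E2F-type letters were found in 3 of the 8 windows, those of Rrm1, Rrm2 and Dtymk, and in 9.57% of all 32851 windows of this length; the CCAAT box was found in the same 3 windows and in 37.4% of all. They began at positions -67 and -222 from the GENCODE start for the E2F-type match of Rrm1 and Rrm2, and at -72 for that of Dtymk. The Tk1 window held neither, though only 172 of its bases lie before the GENCODE start. The CHR element (TTTGAA and its variant with letters TTCGAA, either strand), an element of late cell cycle promoters, was found for Dck alone among the 8 and in 19.2% of all windows. For Samhd1 and Dut the RefSeq start lies inside the gene as GENCODE gives it, so those windows are mostly transcribed sequence. The RefSeq starts of Rrm2, Tk1 and Dck also lie inside the gene, which leaves 237, 172 and 233 bases before the GENCODE start.

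Ribonucleotide reductase was measured through both subunits. Rrm1 (ENSMUSG00000030978.10), on chromosome 7 of GRCm38 from 102441695 to 102469771, was at 269, 310 and 330 CPM in scrambled control and at 153, 158 and 167 CPM in IFNγR1KO libraries. Every IFNγR1KO library thus lay well below every scrambled control library. The means were 303 ± 30.8 and 159 ± 6.71 CPM (SD, n = 3 each), and the log2 fold change was -0.93 (standard error, SE, 0.14; edgeR adjusted p = 0.00098). Rrm2 (ENSMUSG00000020649.11), on chromosome 12 from 24708241 to 24714146, was at 681, 666 and 686 CPM in scrambled control and at 314, 340 and 327 CPM in IFNγR1KO libraries. It varied least of the 8 among replicates, with a coefficient of variation of 1.57% in scrambled control and 3.98% in IFNγR1KO cells. The means were 677 ± 10.7 and 327 ± 13 CPM (SD, n = 3 each) and the log2 fold change was -1.05 (SE 0.14, edgeR adjusted p = 0.00039).

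Both subunits were thus lower, at 0.526 and 0.483 times the level of scrambled control. Within a library, a ratio of 2 transcripts does not depend on how libraries are scaled, and 6 such ratios were compared by a two-sided exact permutation test, in which 3 against 3 libraries cannot go below p = 0.1. The ratio of Rrm2 to Rrm1 per kilobase of exon was 10, 8.54 and 8.27 in scrambled control and 8.15, 8.54 and 7.8 in IFNγR1KO libraries. The groups overlapped, and the difference of -0.13 on the log2 scale was within the replicate SD of 0.15 in scrambled control (exact permutation p = 0.3, 0.36 after Benjamini-Hochberg adjustment over the 6 ratios). Without scrambled control replicate 1 it was -0.04. The size of the ratio depends on the length taken for each gene: Rrm1 has 11012 bases of exon over all its annotated transcripts but 3997 in its longest protein-coding transcript, and with the latter length for both genes the ratio ran from 3.58 to 4.61.

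Rrm2b encodes the alternative small subunit, which p53 can induce and which supplies dNTPs for repair and for mitochondrial DNA. It was at 25.6, 20.2 and 24.8 CPM in scrambled control and at 44.3, 36 and 32.3 CPM in IFNγR1KO libraries, the opposite direction to Rrm2. It rose by 0.67 on the log2 scale (SE 0.16, edgeR adjusted p = 0.016), and exons of Gm49085 on the other strand cover 8.04% of its exonic sequence. Whether reads from there were counted with Rrm2b or set aside as ambiguous depends on the strand setting, which is not given. Without scrambled control replicate 2 the edgeR adjusted p of Rrm2b was 0.0834, and without IFNγR1KO replicate 10 it was 0.0918. The ratio of Rrm2b to Rrm2 per kilobase was 0.0114, 0.00921 and 0.011 in scrambled control and 0.0428, 0.0321 and 0.03 in IFNγR1KO libraries. It was 3.29-fold higher in IFNγR1KO cells, with no overlap (exact permutation p = 0.1, 0.15 adjusted), though Rrm2b remained the far smaller of the pair. Trp53, the gene of p53, chosen for mention after its values were seen, had a log2 fold change of 0.06 (adjusted p = 0.857 from edgeR), and its sign changed when single libraries were left out, from -0.11 to 0.17. This is an RNA level, and the part of p53 in the rise of Rrm2b was not tested. The study's own enrichment analysis listed p53 among the affected pathways.

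**Figure D2:**
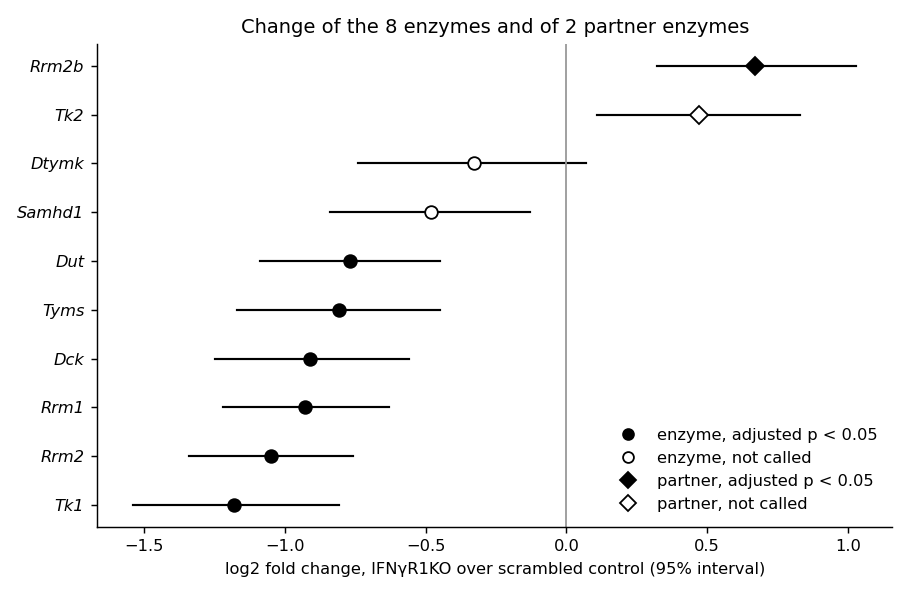
Log2 fold change of IFNγR1KO over scrambled control with its 95% interval (horizontal axis) for the 8 enzymes (circles) and for Tk2 and Rrm2b (diamonds); filled symbols have an adjusted p under 0.05 from edgeR. All 8 enzymes lie to the left of 0, from Tk1 at -1.18 to Dtymk at -0.33, and Rrm2b and Tk2 lie to the right.

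Thymidylate can come from synthesis or from salvage, and the genes of both routes fell. Tyms (ENSMUSG00000025747.12), on chromosome 5 from 30058202 to 30073617, was at 204, 199 and 149 CPM in scrambled control and at 106, 121 and 88.3 CPM in IFNγR1KO libraries. Its highest IFNγR1KO library lay below the scrambled control replicate 3, which was itself the lowest of its group. The log2 fold change was -0.81 (SE 0.17, edgeR adjusted p = 0.0064), and with single libraries left out the adjusted p ran from 0.000604 to 0.0455. A processed copy of the gene, Tyms-ps, is annotated elsewhere in the genome, and reads that match both would have been set aside as aligned to several places.

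Tk1 (ENSMUSG00000025574.13), the cytosolic kinase that salvages thymidine, had the lowest log2 fold change of the 8. On chromosome 11 from 117815526 to 117826092, it was at 404, 433 and 311 CPM in scrambled control and at 173, 191 and 144 CPM in IFNγR1KO libraries. The means were 383 ± 63.4 and 169 ± 23.6 CPM (SD, n = 3 each), for a log2 fold change of -1.18 (SE 0.17, edgeR adjusted p = 0.00075). Of all tested genes, 1.3% had a log2 fold change as low or lower. Afmid, on the other strand, covers 1.6% of its exonic bases. Tyms and Tk1 feed the same pool. The ratio of Tyms to Tk1 per kilobase was 0.431, 0.393 and 0.408 in scrambled control and 0.524, 0.541 and 0.523 in IFNγR1KO libraries. It did not overlap between groups and was 1.29-fold higher in IFNγR1KO cells, a difference that reached the smallest p the design allows (exact permutation p = 0.1, 0.15 adjusted).

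The mitochondrial thymidine kinase had a fold change of the opposite sign. Tk2 was at 12.5, 13.4 and 12.9 CPM in scrambled control and at 18.2, 20.2 and 15.5 CPM in IFNγR1KO libraries, higher in each of the latter. Its log2 fold change of 0.47 did not pass the test (SE 0.17, edgeR adjusted p = 0.0743), and it passed in 2 of 14 alternatives, without IFNγR1KO replicate 12 (adjusted p = 0.0363) and without both replicates that stood apart (0.0295). With single libraries left out the adjusted p ran from 0.0363 to 0.268. The ratio of Tk1 to Tk2 per kilobase was 22.2, 22.1 and 16.6 in scrambled control and 6.53, 6.5 and 6.4 in IFNγR1KO libraries. The IFNγR1KO libraries were close to each other and at 0.321 times the level of scrambled control, with no overlap (exact permutation p = 0.1, 0.15 adjusted).

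Dtymk (ENSMUSG00000026281.15), whose product acts on thymidylate from either route, was the enzyme whose groups overlapped. On chromosome 1 from 93792576 to 93801934, it was at 203, 206 and 147 CPM in scrambled control and at 165, 165 and 110 CPM in IFNγR1KO libraries. Scrambled control replicate 3 lay below IFNγR1KO replicates 10 and 11. The log2 fold change was -0.33, with a 95% interval from -0.74 to 0.07 (adjusted p = 0.26 from edgeR), an interval that holds no change as well as a fall nearly as large as that of Dut. Its replicates were the most variable of the 8, with coefficients of variation of 17.9% and 21.5%. With single libraries left out it was called in none of 6 fits, and the log2 fold change ran from -0.17 without IFNγR1KO replicate 12 (adjusted p = 0.525 from edgeR) to -0.48 without scrambled control replicate 3 (adjusted p = 0.0858). Without both of these it was -0.31, with an adjusted p of 0.0467.

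Dut (ENSMUSG00000027203.15) encodes the dUTPase, a source of dUMP for TYMS. On chromosome 2 from 125247190 to 125258608, it was at 205, 188 and 164 CPM in scrambled control and at 108, 122 and 95.6 CPM in IFNγR1KO libraries. All IFNγR1KO libraries were lower than all scrambled control libraries, with a log2 fold change of -0.77 (SE 0.15, edgeR adjusted p = 0.0041). Dck (ENSMUSG00000029366.10), the salvage kinase for deoxycytidine, deoxyadenosine and deoxyguanosine, lies on chromosome 5 from 88764996 to 88783281. It was at 32.3, 28.8 and 36 CPM in scrambled control and at 16.5, 15.8 and 19.5 CPM in IFNγR1KO libraries. The log2 fold change was -0.91 (SE 0.16, edgeR adjusted p = 0.0026). The kinases that salvage thymidine and deoxycytidine were also set against each other. The ratio of Tk1 to Dck per kilobase was 9.09, 10.9 and 6.28 in scrambled control and 7.63, 8.76 and 5.36 in IFNγR1KO libraries, with overlapping groups and a difference of -0.27 on the log2 scale against an SD of 0.41 in scrambled control (exact permutation p = 0.4, 0.4 adjusted). It was -0.06 without IFNγR1KO replicate 12, -0.09 without scrambled control replicate 2 and -0.49 without scrambled control replicate 3. The low value in each group was that of replicate 3 or 12.

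Samhd1 (ENSMUSG00000027639.16) encodes the hydrolase that lowers dNTP pools and is known as an interferon-responsive restriction factor. On chromosome 2 from 157097533 to 157135265, it was at 43.1, 52.9 and 61 CPM in scrambled control and at 31.8, 39.4 and 41.2 CPM in IFNγR1KO libraries. The groups were separate by a narrow gap, between scrambled control replicate 1 and IFNγR1KO replicate 12. The log2 fold change was -0.48 with a 95% interval from -0.84 to -0.13, and it did not pass the test after adjustment (adjusted p = 0.065 from edgeR). The adjusted p was 0.0373 without scrambled control replicate 1, 0.0252 without IFNγR1KO replicate 12, and 0.252 without IFNγR1KO replicate 10. Relative to Rrm1, per kilobase of exon, it was at 0.193, 0.206 and 0.223 in scrambled control and at 0.25, 0.3 and 0.298 in IFNγR1KO libraries. This ratio was 1.36-fold higher in IFNγR1KO cells with no overlap (exact permutation p = 0.1, 0.15 adjusted). Irf1, an interferon-responsive transcription factor in a list of regulators described below, had a log2 fold change of -0.59 (adjusted p = 0.0203 from edgeR, from 0.009 to 0.109 with single libraries left out); it was chosen for mention after its values were seen, and its part in the level of Samhd1 was not tested.

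**Figure D3:**
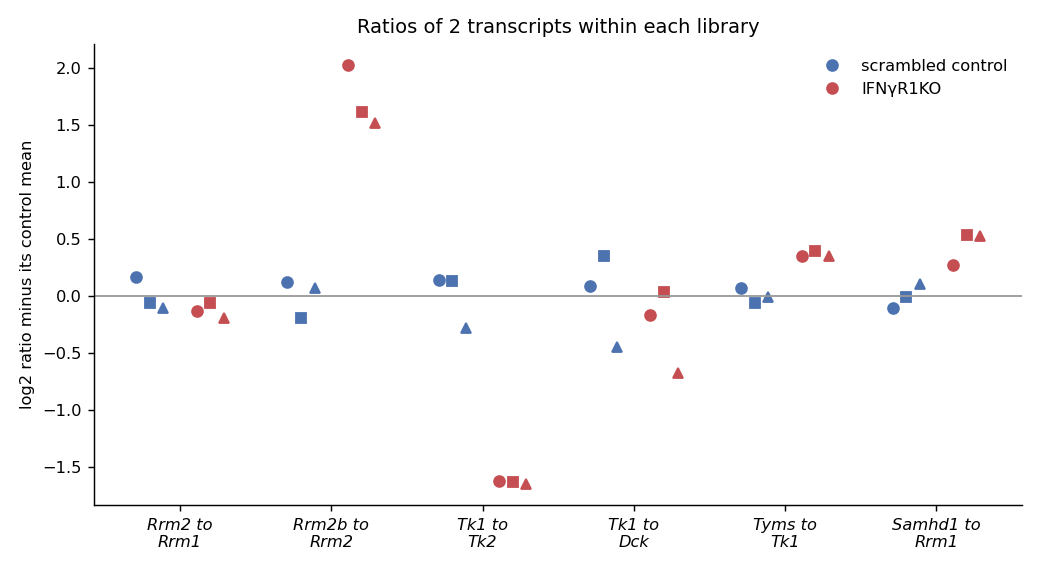
Log2 ratio of 2 transcripts within each library, minus the mean of that ratio in scrambled control (vertical axis), for the 6 ratios; blue points are scrambled control and red points IFNγR1KO libraries, with replicates drawn as circles, squares and triangles as in the plot of levels by library. Rrm2b to Rrm2, Tk1 to Tk2, Tyms to Tk1 and Samhd1 to Rrm1 are separate between groups, while Rrm2 to Rrm1 and Tk1 to Dck overlap.

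The 8 transcripts spanned a wide range of levels. Per kilobase of exon, Rrm2 was the highest in scrambled control at 244 ± 3.85 CPM per kilobase (SD, n = 3), above 98.2% of the protein-coding genes tested. Dut, Tk1 and Dtymk followed at 77, 73.6 and 70.4 and overlapped with their neighbours, then Tyms and Rrm1 at 30.2 and 27.5, which also overlapped. Dck at 8.56 and Samhd1 at 5.72 were lowest and did not overlap. In IFNγR1KO cells Rrm2 was again the highest at 118, and Tk1, at 32.6, lay below Dtymk at 55.9 and Dut at 45.1 in every library. With the longest protein-coding transcript as the length, Rrm2 was first in scrambled control at 309 CPM per kilobase, with no overlap with Tk1 at 266. In IFNγR1KO cells its mean was again the highest at 149 on this length, but it overlapped with Dtymk, whose mean was 139 and whose median of 156 was the higher. Rrm1 then lay above Tyms, and Samhd1 above Dck. The order therefore rests on the transcripts that the cells use, which gene counts do not show.

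**Figure D4:**
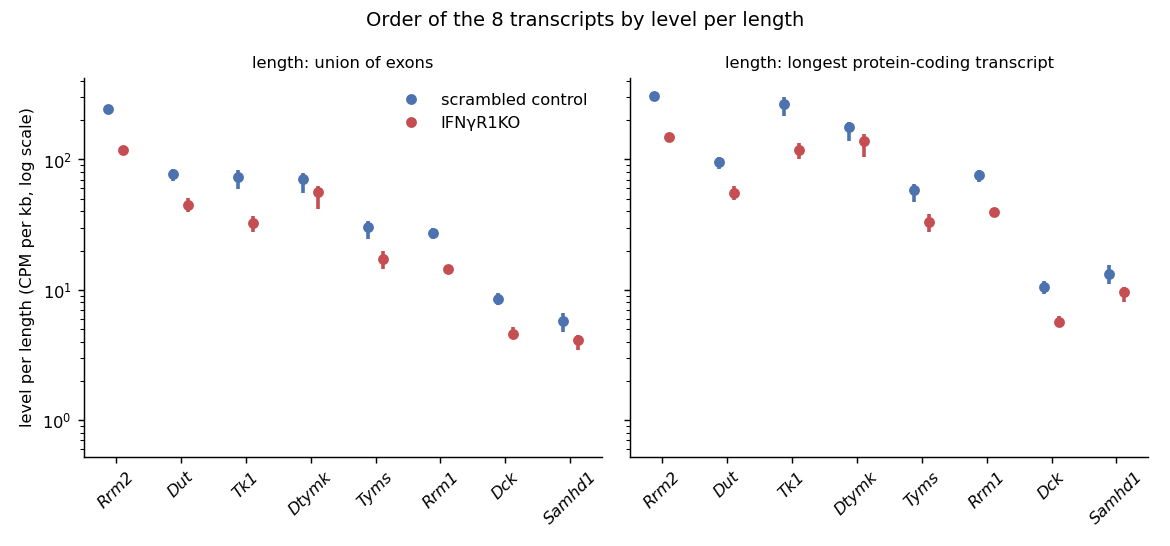
Level per length of the 8 transcripts in CPM per kilobase (log axis), with points for the mean and lines from the lowest to the highest of 3 libraries, for scrambled control (blue) and IFNγR1KO (red). Lengths are the union of all annotated exons on the left and the longest protein-coding transcript on the right. Rrm2 has the highest mean in both, though on the right it overlaps with Dtymk in IFNγR1KO cells. In scrambled control, the place of every transcript but Rrm2 moves with the length used.

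Enzymes around these 8 changed in both directions. Of 16 partners that make or phosphorylate deoxynucleotides or serve TYMS and ribonucleotide reductase, all tested, 4 fell and 3 rose, with a median log2 fold change of -0.22. Over all tested genes, 7.62% were called as lower and 7.73% as higher. Among those that fell, Glrx, a glutaredoxin that can pass electrons to ribonucleotide reductase, had a log2 fold change of -1.63 (adjusted p = 0.00127 from edgeR) at a low level of 7.1 against 2.28 CPM, and Shmt1, the cytosolic serine hydroxymethyltransferase that provides the folate used by TYMS, had one of -0.72 (adjusted p = 0.00432). Shmt2, the mitochondrial form, rose from 266 to 574 CPM, by 1.11 on the log2 scale (adjusted p = 0.000401 from edgeR). Cmpk2, a mitochondrial UMP-CMP kinase known as an interferon-induced gene and chosen for mention after its values were seen, fell from 9.59 to 4.4 CPM, by 1.12. Ak1, an adenylate kinase, had a log2 fold change of 0.65 (adjusted p = 0.0213), which passed in 2 of the 6 fits that left out a library. Without IFNγR1KO replicate 10, 4 of the 16 were called, in a fit that called 1095 of 14074 tested genes.

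Among 15 genes that break down deoxynucleotides or clean the pool, 13 were tested, 3 fell and none rose, with a median of -0.23. For this list and those that follow, the shares over all tested genes were 7.62% lower and 7.73% higher. Cda, cytidine deaminase, fell by 2.09 on the log2 scale (adjusted p = 0.00223 from edgeR), from 4.59 CPM in scrambled control to 1.07 CPM in IFNγR1KO cells, where single libraries held 6 to 9 counts. Itpa, which removes inosine triphosphates, fell by 0.73 (adjusted p = 0.00451). Nt5c2, a cytosolic nucleotidase, had a log2 fold change of -0.54 (adjusted p = 0.0261) and passed in 3 of the 6 fits that left out a library. Upstream, 1 of 5 genes of pyrimidine synthesis fell: Umps, which makes UMP, by 0.88 (adjusted p = 0.00075), from 75 to 40.8 CPM; 6.11% of its exonic sequence is covered from the other strand. A second passed the test without IFNγR1KO replicate 12, in a fit that called 2824 of 14126 tested genes. Of 15 genes of purine synthesis, 5 fell and none rose, with a median of -0.35 and no DEG, among them Ppat, the first committed enzyme of the route, by 0.65 (adjusted p = 0.0104), Gart by 0.54 (adjusted p = 0.0206) and Impdh2 by 0.51 (adjusted p = 0.0236); 19.7% of the exonic sequence of Gart and 6.15% of that of Ppat is covered from the other strand. That count rested on the full set of libraries: 1 gene was called without scrambled control replicate 2, IFNγR1KO replicate 10 or IFNγR1KO replicate 11, and 3 without scrambled control replicate 1. In that order, these fits called 1087, 1095, 1028 and 1697 of all tested genes, against 2093 with all libraries. Of 9 transporters of nucleosides and nucleotides, 5 were tested and 2 rose, Slc25a33, a mitochondrial pyrimidine nucleotide carrier, by 1.01 (adjusted p = 0.00417) and Slc29a3, a lysosomal nucleoside transporter, by 0.77 (adjusted p = 0.0394). Slc29a3 was not called without scrambled control replicate 1 or 2 or IFNγR1KO replicate 10 or 12, and 14.9% of the exonic sequence of Slc25a33 is covered from the other strand.

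Genes of S-phase entry and DNA replication moved with the 8 enzymes. Of 20 such genes, 18 fell and none rose, against 7.62% of all tested genes that were called as lower. The median log2 fold change was -0.84, close to the -0.86 of the enzymes. The groups did not overlap for any of the 20, against 16.6% of all tested genes that were lower with no overlap. The examples with the smallest adjusted p were Fen1, the flap endonuclease, at -1.16, Mcm5, a subunit of the replicative helicase, at -0.89 and Mcm10, a replication initiation factor, at -0.92; 84.2% of the exonic sequence of Fen1 is covered from the other strand. With single libraries left out, 13 to 19 of the 20 were called, while the calls over all tested genes ran from 1028 to 2824. Of 19 regulators of the enzymes, 10 fell and none rose, against the same 7.62% over all tested genes, with a median of -0.55. They included Ccnf, the cyclin F that targets RRM2 for degradation, from 73.4 to 38.1 CPM, a log2 fold change of -0.95 (adjusted p = 0.000804 from edgeR), E2f2, an activating E2F factor, at -1.14 (adjusted p = 0.00115) and Cdk1, which phosphorylates SAMHD1 in cycling cells, at -1.05 (adjusted p = 0.00127). These are RNA levels, and the part of the cell cycle in the fall of the enzymes was not tested.

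**Figure D5:**
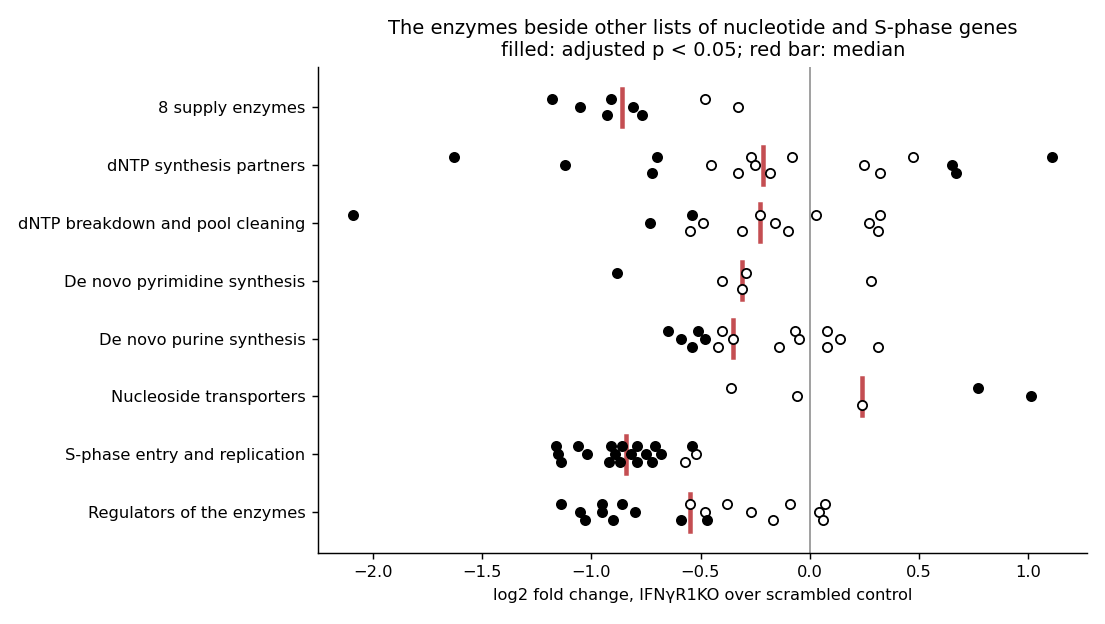
Log2 fold change of IFNγR1KO over scrambled control (horizontal axis) for each tested gene of the 8 enzymes and of 7 other lists; filled points have an adjusted p under 0.05 from edgeR and red bars are medians. The medians of the enzymes, -0.86, and of the S-phase genes, -0.84, lie lowest, and the nucleoside transporters alone have a median above 0, at 0.24.

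Across the 6 libraries, the genes with the pattern most like that of Rrm2, by Pearson correlation of log2 CPM among 11053 genes with a mean of at least 5 CPM, were Umps, Ccdc85b, Ercc6l, Pmp22 and H2-K1, with r between 0.998 and 0.999. Their log2 fold changes ran from -0.40 to -1.98, so a like pattern did not mean a like size of change. For Samhd1 they were Plcg2, Gm21844, Nln, Daam2 and Osgin1, with r between 0.991 and 0.999. With 3 libraries in each of 2 groups these correlations describe mostly the difference between groups, in libraries that the genes share.

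Rrm1, Rrm2, Tyms, Tk1, Dut and Dck were called in each of the 14 alternatives, which included DESeq2, limma-voom, other scalings, no filter and leaving out each library in turn. When the libraries were thinned to equal totals, 6 of the 8 were called, against 14.6% of the genes tested in that fit. Without both replicates 3 and 12, 2 libraries against 2, all 8 were called, but so were 22.3% of all genes tested there, 3064 of 13747; that alternative was chosen after seeing the data.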

How the data were processed

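RNA of 3 scrambled control and 3 IFNγR1KO cultures of B16 cells was measured by poly(A)-selected, paired-end sequencing. The authors aligned reads to GRCm38 with STAR 2.7.5a, counted them with HTSeq 0.11.2 and deposited raw read counts per gene, 1 table per library, with no normalization. The annotation release and strand setting are not given in the sources used here. From 46.9% to 47.7% of the reads listed fell in no gene and 3.76% to 4.61% aligned to several places; these rows were left out.

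Groups came from the sample titles. Symbols, positions and exon lengths came from GENCODE release M21, which held 55154 of the 55335 identifiers. In R 4.3.3, edgeR 4.0.16 was run with filterByExpr (minimum count 10, minimum total 15), TMM and the quasi-likelihood test over 13642 genes; standard errors were the log2 fold change over the root of its F. A DEG also had an absolute log2 fold change above 1. Alternatives were DESeq2 1.42.0, limma-voom (limma 3.58.1), other scalings, no filter, thinning and leaving out libraries. A single count was worth 0.0966 to 0.142 CPM.

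The enzymes, lists and ratios were chosen with earlier results of these data known. Named were all 8 enzymes, Rrm2b, Tk2 and Ifngr1, up to 3 called genes per list and direction by adjusted p, and the 5 genes most like Rrm2 and Samhd1; others are marked as chosen after their values were seen. Of the planned lists and ratios, 2 genes and 1 ratio are not reported here, and adjusted p-values of ratios are over the other 6. On counts simulated from these libraries for 13642 genes, edgeR recovered 64% of 100 genes changed by 0.8 and 92% of 100 changed by 1.5 on the log2 scale, with 8 calls on unchanged genes. The simulation changed far fewer genes than the 2093 called in the data and drew each library independently. These rates therefore do not give the power of the reported fit.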

Additional observations from a re-analysis of the deposited data

How the results depend on the processing

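Over 14 alternatives, 107 of 112 values of the 8 enzymes kept their direction and side of the threshold, none reversed, and 5 passed the threshold that they had missed: Samhd1 without a filter (adjusted p = 0.0239) and in 3 settings with fewer libraries, and Dtymk without replicates 3 and 12. Of 350 values of other named genes, 323 stayed the same, 23 lost and 2 gained the call, and 2, both of Trp53 with a library left out, reversed (-0.11 to 0.17 with single libraries left out). Genes named only as cell type markers or for a pattern like that of Rrm2 or Samhd1 are not among these values. The number of genes called, 2093, ran from 1028 to 2824 with single libraries left out, and was 1087 without scrambled control replicate 2, 1095 without IFNγR1KO replicate 10 and 1028 without IFNγR1KO replicate 11, which have fewer samples. In the same fits the called partners ran from 4 to 9, purine synthesis genes from 1 to 6, pyrimidine synthesis genes from 1 to 2 and transporters from 1 to 2. Called breakdown genes were 5 without a filter and 6 without replicates 3 and 12, where 2 pyrimidine synthesis genes were called; the cause was not tested. Gene length cancels in the difference of a ratio between groups, so counts without length give the same differences by arithmetic and test nothing. No paired analysis was run, because the labels give no pairs. They number the scrambled control libraries 1 to 3 and the IFNγR1KO libraries 10 to 12, so the groups share no number. Replicates 3 and 12 had the same 4 enzymes lowest and the same 3 highest in their groups. Whether these 2 libraries were handled together is not stated, and a shared effect was not modelled. With 3 libraries a group the exact permutation tests cannot pass 0.05, and genes with few counts, such as Cda and Glrx, are the least precise.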
